A study of Mus musculus with 31 samples.

Results

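Antiviral TRIM ligases and genes of the PML nuclear body were followed in primary mouse microglia and in mouse hippocampus. The 10 genes were taken by name from the microglial count table and by the same gene identifiers from the hippocampal table. No cutoff on their values was used for the choice, but they were chosen with earlier results of these data known. They were *Trim14*, *Trim21*, *Trim25*, *Trim26*, *Trim30a*, *Trim30d*, *Trim34a*, *Trim56*, *Pml* and *Sp100*, 10 of 54532 rows in the microglial table and 10 of 48795 in the hippocampal table. All 10 passed the filter on low counts in both tables, where 13675 and 16453 genes were tested. Microglia, cultured from the cortices of newborn mice, formed 6 groups of 3 libraries, WT and *Cgas* KO cells that each received vehicle, tau fibrils or HT-DNA (herring testis DNA, a ligand of the DNA sensor cGAS). The study set these groups up to ask whether the interferon response of microglia to tau needs cGAS. Hippocampi came from 7 non-transgenic (Ntg) mice, 3 females and 4 males, and from 6 mice carrying the P301S tau transgene, 3 females and 3 males, all aged 8 to 9 months, with 1 library per mouse. The *Cgas* genotype of these mice was not stated for these libraries. Whether WT and *Cgas* KO cultures were prepared side by side was not given, so genotype and culture preparation cannot be told apart. The study describes the microglial libraries of a group as biologically independent, without saying what they shared, and p-values measure the spread between these libraries.

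Most TRIM proteins carry a RING domain that attaches ubiquitin to other proteins, together with B-box and coiled-coil segments. Many of them act in the sensing of viral nucleic acids, and many are themselves induced by type I interferon through the interferon-stimulated response element (ISRE) in promoters. PML, which is itself a TRIM protein, builds nuclear bodies in which SP100 resides, and interferon raises both.

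Libraries read the 3′ ends of transcripts and held 17037459 to 25174764 counts in microglia and 25953296 to 35779977 in hippocampus. Levels are given below as normalized CPM, that is counts relative to the TMM-scaled library total in the usual CPM unit. *Cgas* itself lay at 18.8 to 44.3 normalized CPM in the 9 WT libraries and at 3.76 to 7.45 in the 9 *Cgas* KO libraries, and counts over the whole gene can include reads outside a deleted part. *Mapt* lay at 858 to 1125 normalized CPM in P301S mice and at 519 to 642 in Ntg mice. In the microglial libraries 10 of 10 markers of microglia and macrophages had a mean of at least 1 CPM in each of the 6 groups, whereas none of the 7 neuronal markers did in any. The most similar replicate libraries differed by more than sampling noise, so none was a plain copy of another, and each was counted as a separate sample. This check cannot tell separate cultures from separate libraries of the same culture.

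The members lie on 7 chromosomes (GRCm38). *Trim30a* (chr7:104409025-104465193), *Trim30d* (chr7:104470014-104507849) and *Trim34a* (chr7:104244457-104262234) lie in a cluster of Trim genes that also holds *Trim5*, *Trim12a*, *Trim12c*, *Trim30b*, *Trim30c* and *Trim34b*. Copies could make the counts of all 3 uncertain. Of all stretches of 50 bases in the *Trim34a* transcripts, 39.8% also occur in *Trim34b*, and 5.98% of those of *Trim30a* also occur in *Trim30d*, where 7.49% are shared with other genes, so the counting could split reads between them. Of the *Sp100* stretches, 5.86% occur in other genes, and at most 1.08% of the stretches of *Trim14*, *Trim21*, *Trim25*, *Trim26*, *Trim56* or *Pml* do. These shares are over whole transcripts, and the libraries read 3′ ends, so they do not measure how far the counts are affected. *Trim14* overlaps *Nans* on the opposite strand over 9852 bases, and the sources used here do not say whether the counting used strand. *Nans* moved the other way from *Trim14*, from 67.4 normalized CPM in WT vehicle cells to 54.0 with tau and 95.7 in *Cgas* KO vehicle cells.

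Promoter sequence is shown for the members that hold the letters of an ISRE near the start of transcription. Windows of 250 bases before to 50 bases after a start site (RefSeq, GRCm38.p6) were found for 9 of the 10 members. The letters TTTCNNTTTC, or GAAANNGAAA on the other strand, occurred in the windows of 5 of the 9, namely *Trim21*, *Trim26*, *Trim30a*, *Trim30d* and *Trim34a*, and in those of 3.99% of 27025 genes. The letters TTCNNNGAA, the core of the gamma interferon activation site, occurred in 0 of the 9 and in 9.55% of all genes. The same 250 bases upstream are shown for *Trim30a* (chr7:104465194-104465443, minus strand) and *Trim30d* (chr7:104507850-104508099, minus strand), which are 89.0% identical when aligned, and for *Trim26* (chr17:36836896-36837145, plus strand). For *Trim21* (chr7:102565447-102565476, minus strand) and *Trim34a* (chr7:104244460-104244489, plus strand), in which the match lies just after the start site, 30 bases around it are shown. All are written 5′ to 3′ on the strand of the gene with the matched letters in capitals.
*Trim30a*: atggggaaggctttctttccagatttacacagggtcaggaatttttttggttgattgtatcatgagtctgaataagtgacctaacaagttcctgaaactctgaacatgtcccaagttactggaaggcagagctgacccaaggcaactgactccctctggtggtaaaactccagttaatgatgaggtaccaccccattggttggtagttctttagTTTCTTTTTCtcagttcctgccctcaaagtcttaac
*Trim30d*: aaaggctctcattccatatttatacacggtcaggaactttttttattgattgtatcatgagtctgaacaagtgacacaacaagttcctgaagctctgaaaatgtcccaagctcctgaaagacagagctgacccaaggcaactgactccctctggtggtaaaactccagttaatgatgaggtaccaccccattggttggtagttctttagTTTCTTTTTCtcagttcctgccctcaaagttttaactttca
*Trim26*: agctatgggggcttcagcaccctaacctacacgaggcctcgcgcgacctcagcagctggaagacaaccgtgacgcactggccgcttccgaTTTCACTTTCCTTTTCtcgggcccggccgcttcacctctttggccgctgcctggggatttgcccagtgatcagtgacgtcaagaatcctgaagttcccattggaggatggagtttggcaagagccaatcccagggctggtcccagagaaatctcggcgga
*Trim21*: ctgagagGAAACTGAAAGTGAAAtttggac
*Trim34a*: tttggagTTTCAGTTTCttttctctgcagt
The match begins 36 bases before the start site in *Trim30a*, which has a match at another annotated start too, and 41 bases before it in *Trim30d*, and the capitals of *Trim26* and *Trim21* hold 2 overlapping matches each. A match of letters shows no binding. Only these exact letters in these windows were searched, so *Trim25*, *Trim56*, *Pml* and *Sp100*, which had no match, are not shown to lack the element. Its part in the changes of the members was not tested.

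In WT microglia, tau fibrils raised all 10 members and HT-DNA raised all 10. The rises with tau ran from 1.24-fold for *Trim25* to 2.28-fold for *Pml*, and those with HT-DNA from 1.33-fold for *Trim56* to 3.28-fold for *Sp100*. In *Cgas* KO cells with vehicle all 10 were lower than in WT cells with vehicle, by 1.66-fold for *Trim56* to 7.80-fold for *Trim30d*. In *Cgas* KO cells tau still raised all 10, by 1.36-fold for *Trim26* to 7.19-fold for *Trim30d*, and none passed the test for HT-DNA.

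These counts stand against many changes over all genes. With edgeR's quasi-likelihood test, 15.8% of the 13675 genes rose with tau in WT cells, 22.8% rose with HT-DNA in WT cells and 11.2% rose with tau in *Cgas* KO cells, while 27.3% were lower in *Cgas* KO than in WT vehicle cells. A rise or fall beyond 1 on the log2 scale was rarer. With tau in WT cells it was met by 4 members (*Trim30a*, *Trim30d*, *Pml* and *Sp100*) against 2.89% of all genes, and with HT-DNA in WT cells by 5 (the same 4 and *Trim21*) against 5.29%. With tau in *Cgas* KO cells it was met by 8 members, all but *Trim26* and *Trim56*, against 2.46% of all genes. Between *Cgas* KO and WT vehicle cells the same 8 fell beyond it, against 7.35% of all genes. The median log2 fold change of the members was 0.81 with tau in WT cells, 0.96 with HT-DNA in WT cells, 1.36 with tau in *Cgas* KO cells and -1.70 for *Cgas* KO against WT vehicle cells, where the medians of all genes tested lay between -0.03 and 0.01. The tau and HT-DNA comparisons of a genotype share their vehicle libraries, and of the WT vehicle libraries number 1 was the highest and number 2 the lowest for all 10 members.

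**Figure D1:**
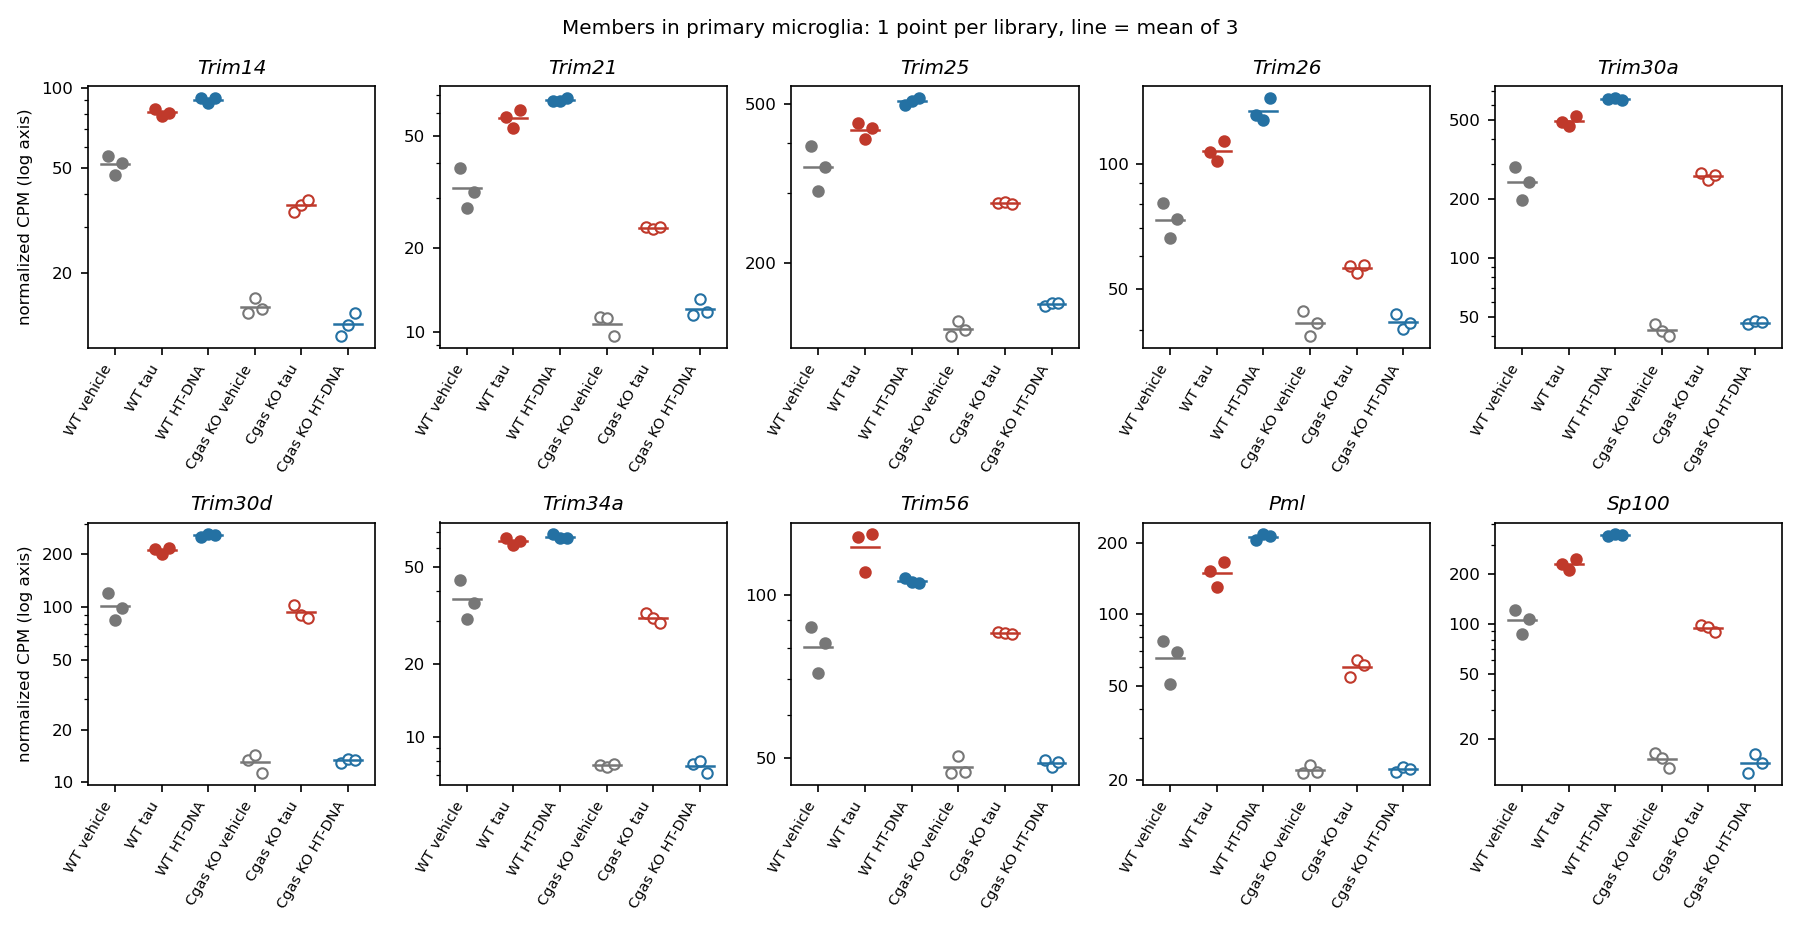
Normalized CPM (log axis) of the 10 members in the 18 microglial libraries, 1 point per library, filled for WT and open for *Cgas* KO, with the mean of each group as a line. For 9 members WT HT-DNA cells had the highest mean, and for *Trim56* WT tau cells did, while the *Cgas* KO vehicle and *Cgas* KO HT-DNA groups were the lowest pair for all 10.

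*Trim30a*, a mouse TRIM protein known to restrain Toll-like receptor signalling through the adaptors TAB2 and TAB3, was at 289, 197 and 242 normalized CPM in the 3 WT vehicle libraries and at 490, 469 and 523 with tau. With HT-DNA it was at 638, 649 and 634. The 3 WT groups did not overlap. The log2 fold change was 1.03 ± 0.08 (SE, n = 3 and 3, adjusted p = 1.46e-11, edgeR) for tau and 1.40 ± 0.08 (adjusted p = 6.29e-15) for HT-DNA. In *Cgas* KO cells *Trim30a* lay at 46.3, 42.4 and 40.1 normalized CPM with vehicle, at 270, 250 and 265 with tau, and at 46.3, 47.6 and 47.0 with HT-DNA. Tau thus lifted the *Cgas* KO libraries into the range of the WT vehicle libraries, and HT-DNA left them at the upper end of, or just above, the range of *Cgas* KO vehicle. The log2 fold changes in *Cgas* KO cells were 2.61 ± 0.09 (adjusted p = 1.11e-18) for tau and 0.13 ± 0.09 (adjusted p = 0.589) for HT-DNA.

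*Trim30d*, the neighbour and close relative of *Trim30a*, held 120, 84.5 and 98.3 normalized CPM in WT vehicle libraries, 215, 200 and 217 with tau, and 252, 260 and 259 with HT-DNA. In *Cgas* KO libraries it held 13.3, 14.4 and 11.3 with vehicle, 103, 90.3 and 86.6 with tau, and 12.9, 13.6 and 13.5 with HT-DNA. *Trim30d* was the member with the largest tau response in *Cgas* KO cells (log2 fold change 2.85 ± 0.10, adjusted p = 3.41e-18, edgeR) and the largest fall between the vehicle groups (-2.96 ± 0.10, adjusted p = 2.78e-19). *Trim34a*, at the other end of the same gene cluster, went from 44.2, 30.8 and 35.8 normalized CPM in WT vehicle libraries to 66.2, 61.6 and 64.4 with tau, and lay at 68.3, 66.0 and 65.9 with HT-DNA. In *Cgas* KO libraries *Trim34a* went from 7.70, 7.51 and 7.74 to 32.5, 31.0 and 29.5 with tau, a log2 fold change of 2.02 ± 0.10 (adjusted p = 3.39e-15). With HT-DNA they lay at 7.74, 7.98 and 7.15, on both sides of vehicle. *Trim34a* was the only member whose WT tau and WT HT-DNA groups overlapped.

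*Sp100*, a resident protein of PML bodies, had the largest HT-DNA response of the members. It held 120, 87.1 and 107 normalized CPM in WT vehicle libraries, 228, 211 and 246 with tau, and 340, 346 and 343 with HT-DNA. In *Cgas* KO libraries it held 16.6, 15.5 and 13.5 with vehicle, 97.7, 95.7 and 88.8 with tau, and 12.6, 16.4 and 14.3 with HT-DNA. The HT-DNA libraries of the 2 genotypes differed by 23.5-fold for *Sp100* (log2 fold change -4.56 ± 0.10, adjusted p = 2.51e-24, edgeR). *Pml*, the scaffold of the bodies, held 77.2, 51.1 and 69.2 normalized CPM in WT vehicle libraries, 153, 131 and 167 with tau, and 207, 217 and 214 with HT-DNA. Its *Cgas* KO libraries held 21.5, 23.2 and 21.6 with vehicle and 54.5, 64.3 and 61.1 with tau. The tau response of *Pml* was 1.19 ± 0.09 in WT and 1.44 ± 0.11 in *Cgas* KO cells on the log2 scale, and the difference of 0.25 ± 0.14 did not pass the test (adjusted p = 0.344, edgeR).

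*Trim25* attaches ubiquitin to the RNA sensor RIG-I, and *Trim14* is an adaptor at mitochondria that also recruits a deubiquitinase to cGAS. *Trim25* held 393, 303 and 349 normalized CPM in WT vehicle libraries and 449, 409 and 436 with tau, the smallest WT tau response of the members at 0.31 ± 0.06 (log2, adjusted p = 0.000114, edgeR). In *Cgas* KO libraries it went from 132, 143 and 136 to 283, 285 and 282 with tau, a log2 fold change of 1.05 ± 0.06 (adjusted p = 5.47e-14). *Trim25* was also the member nearest to a call for HT-DNA in *Cgas* KO cells, where its libraries lay at 157, 159 and 160 normalized CPM, above all 3 of vehicle. That difference was 0.21 ± 0.06 on the log2 scale (adjusted p = 0.0912), and it passed the test in the fit without WT vehicle library 1 (adjusted p = 0.0191) or 2 (adjusted p = 0.0122), with no filter on low counts (0.00233), with the compared groups alone (0.00615) and with DESeq2 (0.0386). *Trim14* rose from 51.6 ± 4.33 (SD, n = 3) to 81.2 ± 2.64 normalized CPM with tau and to 90.7 ± 2.36 with HT-DNA in WT cells. In *Cgas* KO cells *Trim14* went from 14.9 ± 0.999 with vehicle to 36.2 ± 1.90 with tau and stood at 12.8 ± 1.27 with HT-DNA, the last a log2 fold change of -0.22 ± 0.08 (adjusted p = 0.271).

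*Trim56*, a ligase that acts in the cGAS and STING pathway, was the member in which tau exceeded HT-DNA. It held 87.5, 71.7 and 81.5 normalized CPM in WT vehicle libraries, 128, 110 and 130 with tau, and 108, 106 and 105 with HT-DNA. In *Cgas* KO libraries it went from 47.0, 50.5 and 47.2 to 85.4, 85.1 and 84.9 with tau and lay at 49.7, 48.2 and 49.1 with HT-DNA. *Trim21*, the cytosolic receptor for antibody-coated virus particles, rose from 32.5 ± 5.42 (SD, n = 3) to 57.7 ± 4.36 normalized CPM with tau and 67.1 ± 0.97 with HT-DNA in WT cells. In *Cgas* KO cells *Trim21* went from 10.7 ± 0.90 to 23.5 ± 0.23 with tau. *Trim26*, a ligase that acts on IRF3 and TBK1 signalling, changed least in *Cgas* KO cells with tau, from 41.5 ± 2.85 to 56.2 ± 1.36 normalized CPM (log2 fold change 0.44 ± 0.07, adjusted p = 8.83e-06, edgeR). In WT cells *Trim26* rose from 73.5 ± 7.03 to 107 ± 5.96 with tau and to 134 ± 8.67 with HT-DNA.

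**Figure D2:**
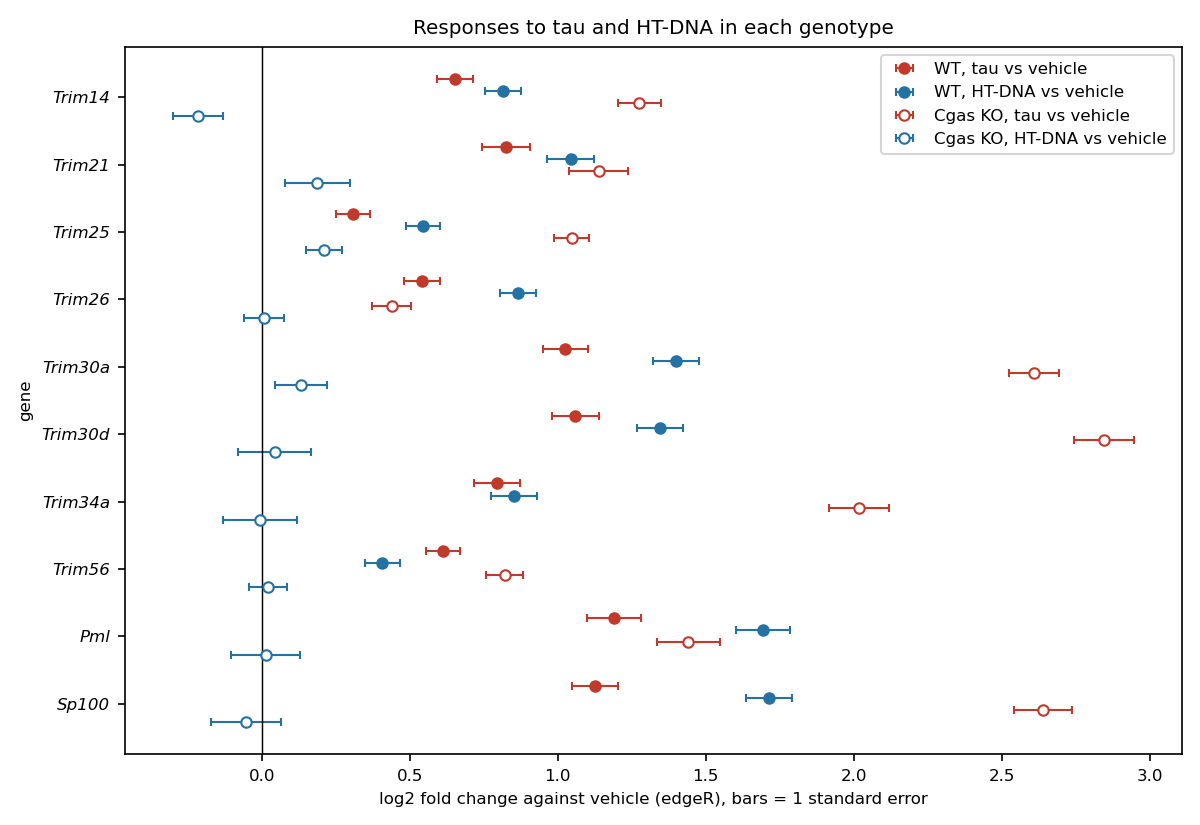
Log2 fold change against vehicle of each member with tau (red) and HT-DNA (blue), filled for WT and open for *Cgas* KO, with bars of 1 standard error. The open red points of *Trim30a*, *Trim30d* and *Sp100* stand between 2.61 and 2.85, and the open blue points of all 10 members lie between -0.22 and 0.21.

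With HT-DNA in *Cgas* KO cells 0 of the 10 members passed edgeR's test, where 1.32% of all genes did in either direction. At an unadjusted p under 0.05, 2 members passed (*Trim14* and *Trim25*), where 1688 of all 13675 genes did. DESeq2 called 1 member (*Trim25*), where it called 172 of all genes higher and 61 lower. The *Cgas* KO vehicle and HT-DNA groups did not overlap for *Trim14*, which was lower with HT-DNA, nor for *Trim21* and *Trim25*, which were higher. They overlapped for the other 7. The share of all genes without overlap was not counted. Full separation of 3 libraries from 3 corresponds to an exact two-sided permutation p of 0.1, so it is no sign of a response by itself. The HT-DNA response differed between genotypes for all 10 members, each with a smaller response in *Cgas* KO cells, against 16.6% of all genes with a negative interaction. The differences ran from -0.34 ± 0.08 for *Trim25* (adjusted p = 0.00215) to -1.77 ± 0.14 for *Sp100* (adjusted p = 7.90e-11). Compared directly, all 10 members were lower in *Cgas* KO than in WT cells with HT-DNA, against 30.1% of all genes, and all 10 fell beyond 1 on the log2 scale, against 11.8%. The fall ran from 2.17-fold for *Trim56* to 23.5-fold for *Sp100*.

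With tau all 10 members were also lower in *Cgas* KO than in WT cells, by 1.44-fold for *Trim56* to 2.50-fold for *Pml*, against 26.2% of all genes that were lower. Beyond 1 on the log2 scale there were 6 (*Trim14*, *Trim21*, *Trim30d*, *Trim34a*, *Pml* and *Sp100*), against 7.41% of all genes. The tau-treated *Cgas* KO libraries overlapped the range of WT vehicle libraries for 6 members (*Trim30a*, *Trim30d*, *Trim34a*, *Trim56*, *Pml* and *Sp100*) and lay below all of them for the 4 others. The share of all genes in each position was not counted. The mean of tau-treated *Cgas* KO cells was 70.1% of that of WT vehicle cells for *Trim14* and 108% for *Trim30a*, the lowest and highest of the members. No test was run between those 2 groups, which differ in both genotype and treatment.

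On the log2 scale the tau response differed between genotypes for 6 members, each larger in *Cgas* KO cells, against 3.61% of all genes with a positive interaction. They were *Trim30d* (1.79 ± 0.13, adjusted p = 1.60e-10, edgeR), *Trim30a* (1.58 ± 0.11), *Sp100* (1.51 ± 0.13), *Trim34a* (1.22 ± 0.13), *Trim25* (0.74 ± 0.08) and *Trim14* (0.62 ± 0.10, adjusted p = 8.27e-05). *Trim21* (0.31 ± 0.13), *Pml* (0.25 ± 0.14), *Trim56* (0.21 ± 0.09) and *Trim26* (-0.10 ± 0.09) did not pass. Without WT vehicle library 2, *Trim21* (adjusted p = 0.0245), *Trim56* (0.0252) and *Pml* (0.0160) also passed, which made 9. The larger folds stood on lower vehicle levels. In added CPM, tau contributed 251 ± 30.7 (SE) to *Trim30a* in WT cells and 219 ± 6.45 in *Cgas* KO cells, and 124 ± 14.1 and 78.9 ± 2.84 to *Sp100*. Of the 6 members with a larger log2 response in *Cgas* KO cells, *Trim25* also added more CPM there, 146 ± 3.62 against 82.9 ± 28.5, and the other 5 added less, with differences from -3.82 ± 4.22 for *Trim34a* to -44.7 ± 14.4 for *Sp100*. The linear differences of *Trim34a* and of *Trim30a* (-32.7 ± 31.3) were of about the size of their standard errors, so their sign is not established, and differences on the linear scale were not tested.

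**Figure D3:**
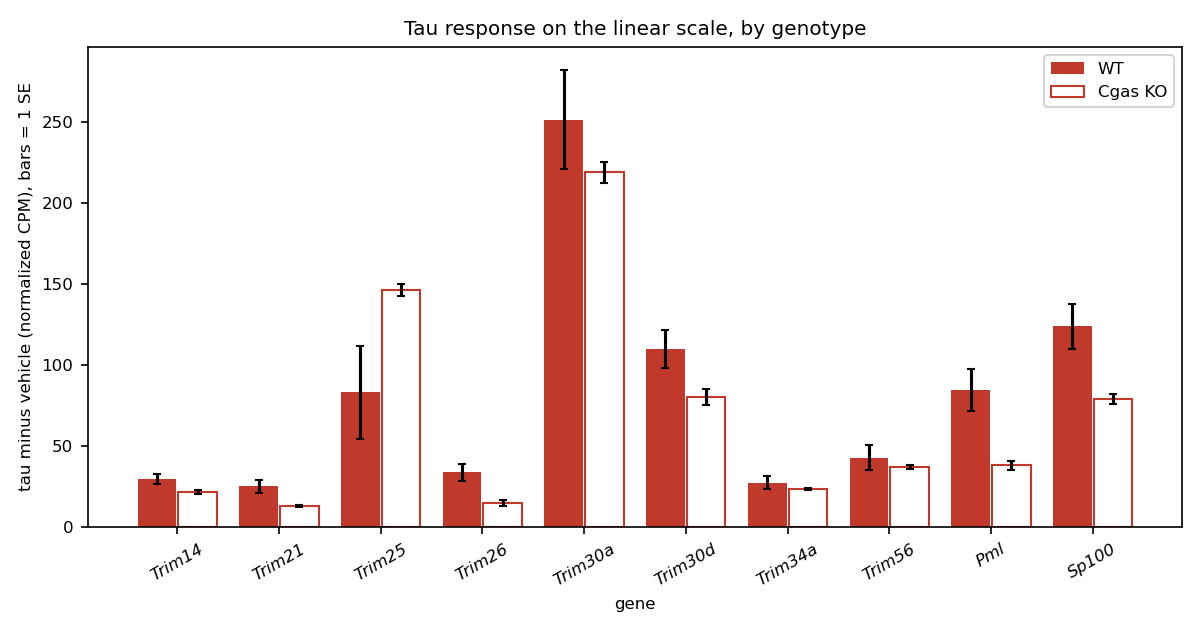
Tau minus vehicle in normalized CPM for each member, filled bars for WT and open bars for *Cgas* KO, with bars of 1 standard error (n = 3 libraries per group). The 2 genotypes gained 251 and 219 CPM of *Trim30a*, and *Trim25* is the only member with the taller open bar.

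Within WT cells tau raised the members less than HT-DNA did for 8 of 10, against 17.8% of all genes that were lower with tau. The largest gap was that of *Sp100* (log2 fold change -0.59 ± 0.08, adjusted p = 3.58e-07, edgeR), followed by *Pml* (-0.50 ± 0.09). *Trim56* was higher with tau (0.20 ± 0.06, adjusted p = 0.00655), and *Trim34a* differed by -0.06 ± 0.08 (adjusted p = 0.598). The calls of *Trim14*, *Trim21* and *Trim56* depended on single libraries. That of *Trim14* was lost without WT HT-DNA library 1 or 3 or WT tau library 2 or 3 (adjusted p = 0.0809 to 0.137 for these). That of *Trim21* was lost without WT HT-DNA library 1, 2 or 3 or WT tau library 2 (0.0537 to 0.164), and that of *Trim56* without WT tau library 1 (0.101) or 3 (0.0511). The 2 treatments differ in what was added to the cells, and their amounts were not matched by any label.

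Other cell markers moved with some of these comparisons. The summed homeostatic microglial markers, 6 of 7 with a mean of at least 1 CPM, lay at 2221 to 2349 normalized CPM in WT vehicle libraries and at 1490 to 1612 in *Cgas* KO vehicle libraries. The 10 markers of microglia and macrophages lay at 8393 to 8739 and 6803 to 6976. The endothelial list summed to 87.2 to 98.3 in WT vehicle, 276 to 279 in WT HT-DNA and 20.6 to 24.9 in *Cgas* KO vehicle libraries, nearly all of it *Flt1*, with *Cldn5* and *Slco1a4* at or near 0. The oligodendrocyte list had median sums of 126, 223 and 73.9 in the same groups, with *Mog* under 1 CPM. Their part in the differences of the members was not tested.

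In hippocampus all 10 members had higher means in P301S than in Ntg mice, and 2 passed the test, *Trim30a* and *Trim34a*, against 1.39% of all 16453 genes that were higher. The median log2 fold change of the members was 0.86 and that of all genes 0.00. *Trim30a* was at 1.29, 1.45 and 1.83 normalized CPM at the lowest, median and highest Ntg mouse, and at 7.57, 5.04, 1.19, 2.44, 9.28 and 7.51 in P301S mice 29, 36, 43, 63, 65 and 77. All but mouse 43 lay above every Ntg mouse. Its log2 fold change was 1.84 ± 0.37 (SE, n = 6 and 7, adjusted p = 0.0303, edgeR), and the exact two-sided permutation test over mice gave p = 0.00816, where 0.000583 is the smallest p it can give. *Trim34a* was at 0.912, 1.38 and 1.52 normalized CPM at the lowest, median and highest Ntg mouse, and at 3.63, 3.29, 1.19, 1.62, 5.12 and 3.98 in the same P301S mice. Mouse 43 lay within the Ntg range and mouse 63 just above it. The log2 fold change of *Trim34a* was 1.31 ± 0.29 (adjusted p = 0.0423, edgeR, and exact permutation p = 0.00641).

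The other 8 members did not pass. *Trim30d* rested on P301S values of 3.73, 3.94, 1.05, 1.19, 6.10 and 4.56 normalized CPM against 0.958 to 1.74 in Ntg mice (log2 fold change 1.39 ± 0.36, adjusted p = 0.0636, edgeR). *Trim14* had 4 to 36 counts per library, the fewest of the members (1.39 ± 0.40, adjusted p = 0.0885). *Sp100* (0.90 ± 0.24, adjusted p = 0.0745), *Trim25* (0.82 ± 0.20, 0.0583), *Trim21* (0.66 ± 0.24, 0.183) and *Trim56* (0.62 ± 0.17, 0.0772) lay between. *Pml* (0.25 ± 0.08, 0.152) and *Trim26* (0.13 ± 0.07, 0.367) had the smallest differences, and *Pml* was the member with the largest tau fold in WT microglia. At an unadjusted p under 0.05, 9 of the 10 passed, all but *Trim26*, where 2612 of all 16453 genes passed in either direction. The exact permutation p-values of the 10 members, not adjusted, ran from 0.00641 to 0.0565.

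**Figure D4:**
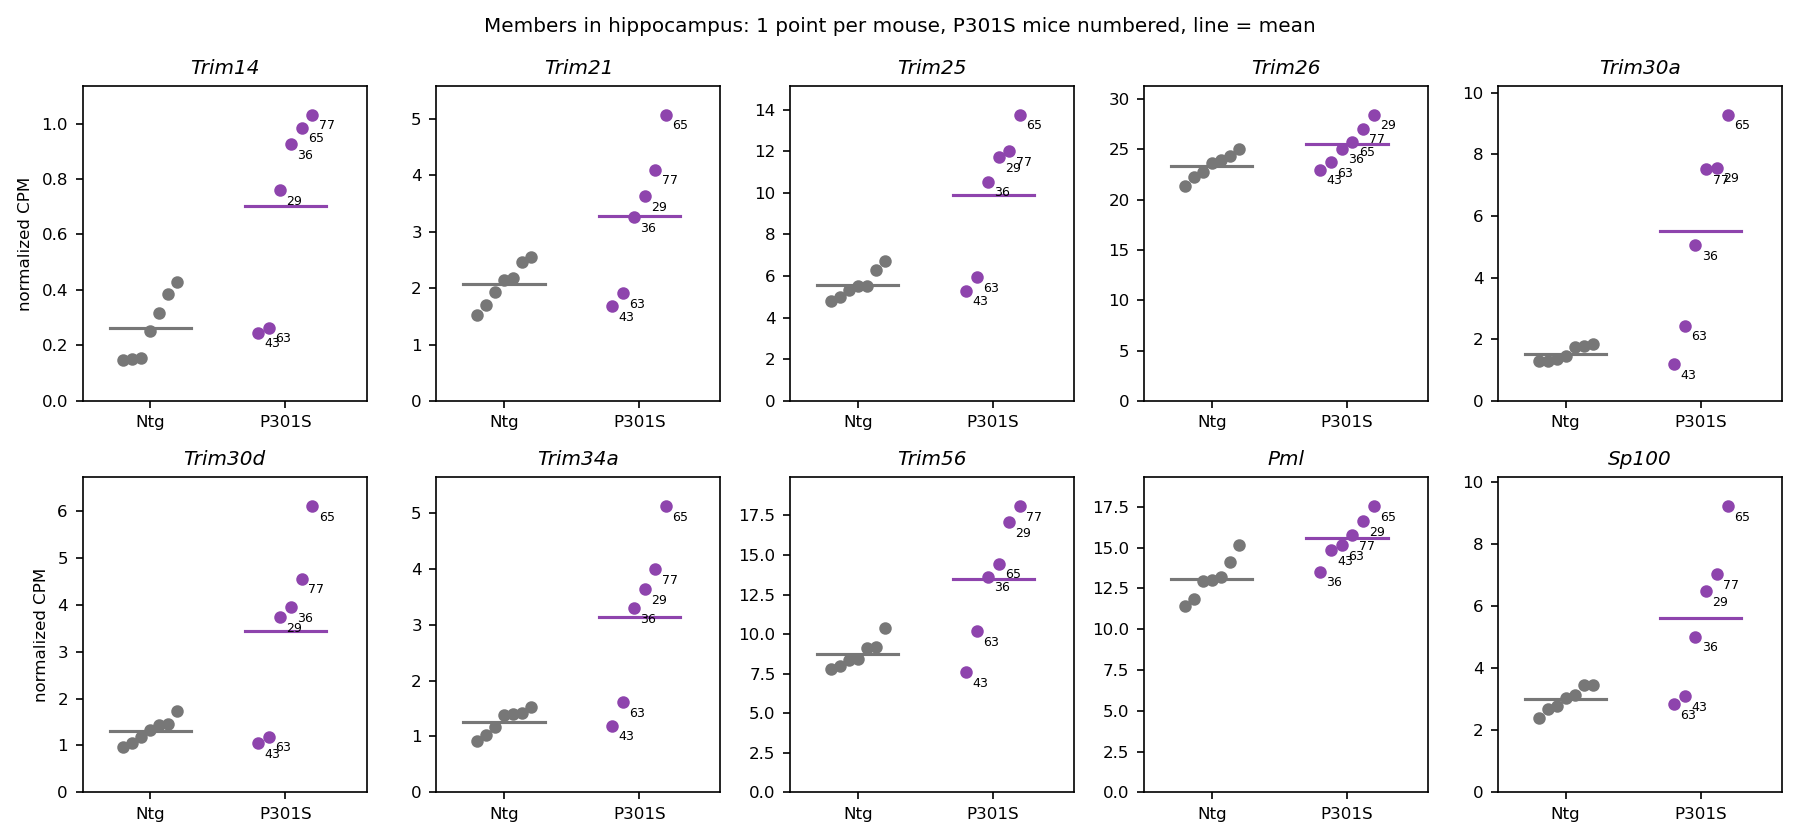
Normalized CPM of the 10 members in each hippocampal library, 1 point per mouse, with the mean of each group as a line and P301S mice numbered. P301S mice 29, 65 and 77 lie above every Ntg mouse for all 10 members and mouse 36 for 9, while mouse 63 does for 2 and mouse 43 for none. The share of all genes was not counted.

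The P301S mice differed among themselves in most members together. Mice 29, 65 and 77 exceeded every Ntg mouse for 10 of 10 members and mouse 36 for 9 of 10. Mouse 63 did so for 2 and mouse 43 for 0. The share of all genes for which each mouse did so was not counted, so these counts have no background to be set against. Both sexes were found among the mice with high and with low counts. The sex by genotype interaction passed edgeR's test for 0 of the 10 members and for 0% of all genes (0 members and 3897 genes at an unadjusted p under 0.05). Summed microglia and macrophage markers (10 of 10 with a mean of at least 1 CPM) moved with the members, at 246 to 292 normalized CPM in Ntg mice, 979, 934 and 998 in P301S mice 29, 36 and 65, 473 in mouse 77, and 271 and 285 in mice 43 and 63. Homeostatic microglial markers lay at 257 to 314 in Ntg mice and at 536, 536, 553 and 408 in mice 29, 36, 65 and 77. In bulk tissue, more cells of a type and more RNA per cell cannot be told apart. With the homeostatic markers as a covariate 0 of the 10 passed, and the log2 fold change of *Trim30a* was 0.999 (adjusted p = 0.0788) and that of *Trim34a* 0.73 (adjusted p = 0.160). All 7 astrocyte markers had a mean of at least 1 CPM, and they summed to 4606 to 5434 in Ntg and 4880 to 8608 in P301S mice. Among them *Gfap* had means of 372 in Ntg and 1731 in P301S mice, *Aqp4* 128 and 209, and *Slc1a2* 2551 and 2613. The T cell list had none of 6 at 1 CPM in Ntg and 1 of 6 in P301S mice. It summed to 1.07 to 1.62 and 1.09 to 7.93. The part of these lists was not tested.

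The hippocampal calls changed when single mice were left out. *Trim30a* no longer passed without Ntg mouse 35, 46, 61, 62, 68 or 71 or P301S mouse 29, 36 or 65, with adjusted p-values of 0.0603 to 0.0859 in those fits. *Trim34a* passed only without P301S mouse 43 (0.00311) or 63 (0.0118), and the adjusted p was 0.0503 to 0.114 without any other mouse. Without mouse 43 there were 8 members past the test, without mouse 63 there were 7, and without any other mouse 0 or 1. The calls over all genes moved in the same way. With all mice 229 of 16453 genes were higher, without mouse 43 751 of 16591, without mouse 63 582 of 16581, and without any other mouse 14 to 329. The log2 fold changes kept their direction in every such fit that tested the member. They ran from 1.62 to 2.04 for *Trim30a* and from 1.11 to 1.48 for *Trim34a*. *Trim14* was tested in 11 of the 13 such fits, as it missed the filter on low counts in the others. With DESeq2, 7 members passed (*Trim14*, *Trim25*, *Trim30a*, *Trim30d*, *Trim34a*, *Trim56* and *Sp100*), and with sex as a covariate 1 did, as *Trim34a* reached 0.0571.

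The genes around the members were taken from fixed lists. Of 38 other Trim genes tested in microglia, 5 rose and 5 fell with tau in WT cells. Of all 13675 genes, 2166 rose and 1663 fell there. The median log2 fold change of the 38 was -0.04. The risers with the smallest adjusted p were *Trim12c* (0.53 ± 0.05, adjusted p = 7.52e-09, edgeR), *Trim30c* (1.69 ± 0.19) and *Trim12a* (0.58 ± 0.07), all 3 in the same cluster on chromosome 7, and *Trim28*, a corepressor of transposable elements, fell by 0.34 ± 0.04 on the log2 scale. With HT-DNA in WT cells 5 rose and 10 fell, among them *Trim30c* (2.68 ± 0.18), *Trim30b* (2.37 ± 0.20) and *Trim28* (-0.65 ± 0.04). Of all 13675 genes, 3112 rose and 3376 fell with HT-DNA in WT cells. With tau in *Cgas* KO cells 6 rose and 0 fell, where 1533 of all 13675 genes rose and 749 fell. With HT-DNA in *Cgas* KO cells 0 passed, where 142 of all 13675 genes rose and 38 fell. Of 34 other Trim genes tested in hippocampus 0 passed in either direction, where 229 of all 16453 genes were higher and 20 lower.

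Of 13 other genes of PML bodies, 7 rose and 0 fell with tau in WT cells, where 2166 of all 13675 genes rose and 1663 fell. *Sp110* (1.18 ± 0.08, adjusted p = 2.24e-12, edgeR) and *Sp140* (1.02 ± 0.08), relatives of *Sp100*, the histone chaperone *Daxx* (1.04 ± 0.09) and *Morc3* (0.50 ± 0.06) led the 7. With HT-DNA in WT cells 8 rose and 2 fell, where 3112 of all 13675 genes rose and 3376 fell. With tau in *Cgas* KO cells 5 rose and 0 fell, led by *Sp110* (1.38 ± 0.10) and *Daxx* (1.36 ± 0.10). Of all 13675 genes, 1533 rose and 749 fell there. Of the same 13, 8 were lower and 2 higher in *Cgas* KO than in WT vehicle cells. Of all 13675 genes, 3737 were lower and 3373 higher. With HT-DNA in *Cgas* KO cells 0 of the 13 passed, where 142 of all 13675 genes rose and 38 fell. None of the 13 passed the test in hippocampus, where 229 of all 16453 genes were higher and 20 lower.

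Of 19 partners and substrates of the TRIM ligases, 11 rose and 1 fell with tau in WT cells. Another count, 9 rising and 0 falling, was met with tau in *Cgas* KO cells. Of all 13675 genes, 2166 rose and 1663 fell with tau in WT cells, and 1533 rose and 749 fell in *Cgas* KO cells. With HT-DNA in *Cgas* KO cells 1 rose, the inflammasome gene *Nlrp3* (0.40 ± 0.09, adjusted p = 0.0162, edgeR), where 142 of all 13675 genes rose. *Ddx58*, which encodes RIG-I, the substrate of TRIM25, rose by 1.33 ± 0.10 (log2, adjusted p = 9.07e-12, edgeR) in WT and by 3.07 ± 0.12 in *Cgas* KO cells. *Isg15*, the ubiquitin-like modifier, rose by 2.02 ± 0.15 and 4.91 ± 0.23, and *Irf7* by 1.57 ± 0.12 and 4.83 ± 0.17. In hippocampus 2 of 18 tested rose, *Irf7* (2.42 ± 0.46, adjusted p = 0.0303) and *Isg15* (2.57 ± 0.56, adjusted p = 0.0396). Of all 16453 genes, 229 were higher there. Of 9 genes of interferon signalling, 7 rose and 0 fell with tau in WT cells, among them the kinase gene *Tyk2* (0.55 ± 0.04, adjusted p = 1.94e-11) and the transcription factor gene *Irf1* (1.08 ± 0.10). In *Cgas* KO cells 7 rose and 0 fell with tau, where *Irf9* rose by 1.46 ± 0.06. *Ifnb1*, which encodes interferon beta, differed between the WT treatments, at 0.250 ± 0.304 normalized CPM with tau and 4.52 ± 0.657 with HT-DNA (adjusted p = 2.57e-06). In hippocampus *Irf9* was the 1 of 8 tested that rose (1.24 ± 0.24, adjusted p = 0.0303).

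The gene outside the members that was most alike in pattern over the 18 microglial libraries is given for 7 of them. By the Pearson r of log2 CPM, *Mx1* was nearest to *Trim25* (0.997), *Cxcl10* to *Trim21* (0.997), *Ifi204* to *Sp100* (0.998) and *Gbp6* to *Trim56* (0.986). *Gm5431* was nearest to *Trim14* (0.997), *Gm12250* to *Trim34a* (0.997) and *Gm8995* to *Pml* (0.997). The points are libraries of 6 groups and share genotype and treatment, so these values describe the pattern and carry no test. Among the members the pair most alike was *Trim30a* and *Trim30d* (0.998) and the pair least alike *Trim26* and *Trim56* (0.908).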

How the data were processed

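Bulk RNA was sequenced from 18 libraries of primary microglia and 13 hippocampal libraries. Per the labels, libraries were made with a 3′ end kit (QuantSeq) that reads 1 site near the end of a transcript, so levels were not compared between genes. The authors deposited raw counts per gene, which the values bear out as whole numbers with unequal totals. The submitters' processing notes name GRCm38, edgeR and limma, and the aligner, the counter, its strand setting and the annotation are not given in the sources used here. Totals were 17037459 to 25174764 counts in microglia and 25953296 to 35779977 in hippocampus.

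Groups were taken from the labels. The 10 members and all gene lists were chosen with earlier results of these data known. Counts were filtered with filterByExpr, scaled by TMM and tested with edgeR's quasi-likelihood test (edgeR 4.0.16, limma 3.58.1, R 4.3.3), with 1 fit over all 6 microglial groups and 1 over both hippocampal groups. P-values were adjusted by Benjamini and Hochberg over the 13675 or 16453 genes tested, and a call is an adjusted p under 0.05 at any fold. Normalized CPM is the CPM value over the TMM-scaled library total. Log2 fold changes are given with their standard error. Single hippocampal values were also tested by exact two-sided permutation over mice, while 3 libraries against 3 cannot give an exact p below 0.1. Beside the members, the text names at most 4 genes per list and comparison, those called with the smallest adjusted p, and for each member the gene outside the members with the highest Pearson correlation of log2 CPM. Genes named for a check (*Nans*, *Mapt*, the markers) and the neighbours on chromosome 7 were added to these. Some genes these rules chose are not reported here.

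Alternatives were RLE scaling, no filter on low counts, DESeq2 (1.42.0), only the groups compared, a replicate block, sex or homeostatic microglial markers as a covariate, a minimum log2 fold change of 1 (microglia) or 0.5 (hippocampus), and each library left out in turn. The tau interaction on the linear scale was added after seeing the data. Libraries of different microglial groups that share a replicate number did not deviate together (correlations of -0.09 to 0.08), so the numbers were not used to pair libraries. Replicate libraries differed by a chi-square of at least 2.32 per degree of freedom over genes. The tests were checked on simulated data. Promoter windows came from RefSeq (GRCm38.p6), and gene positions and transcripts from an annotation of GRCm38.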

Additional observations from a re-analysis of the deposited data

Results flagged for a closer look

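The response of members to a treatment differed between WT and *Cgas* KO microglia by the interaction term of edgeR's quasi-likelihood test. For tau the log2 response was larger in *Cgas* KO cells by 0.62 for *Trim14*, 0.74 for *Trim25*, 1.58 for *Trim30a*, 1.79 for *Trim30d*, 1.22 for *Trim34a* and 1.51 for *Sp100*. The same 6 genes had vehicle levels 2.54-fold to 7.80-fold lower in *Cgas* KO cells, and on the linear scale only *Trim25* gained more CPM there. For HT-DNA the log2 response was smaller in *Cgas* KO cells for all 10 members, with differences of -1.03 for *Trim14*, -0.86 for *Trim21*, -0.34 for *Trim25*, -0.86 for *Trim26*, -1.27 for *Trim30a*, -1.30 for *Trim30d*, -0.86 for *Trim34a*, -0.39 for *Trim56*, -1.68 for *Pml* and -1.77 for *Sp100*. *Trim25* thus had the smallest difference for HT-DNA, and *Sp100* and *Pml* the largest. No hippocampal group held a mouse that stood apart from its group for a member by Dixon's criterion, and groups of 3 microglial libraries were not examined in this way. The criterion looks for a single extreme value and can miss mice that are low together. P301S mice 43 and 63 lay close together for *Trim30d*, at 1.05 and 1.19 normalized CPM.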

How the results depend on the processing

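In microglia the counts of 10 members for tau and HT-DNA in WT cells, tau in *Cgas* KO cells, and *Cgas* KO against WT cells in each treatment were the same without any 1 library and under RLE scaling, no filter, DESeq2, the compared groups alone and the replicate block. With the replicate block the members called also numbered 8 that were lower for WT tau against WT HT-DNA, 6 for the tau interaction and 0 for HT-DNA in *Cgas* KO cells, and over all genes 2150 rose with tau in WT cells against 2166 without it, so it changed no member's call. Asking for a minimum fold left 4 members for tau and 5 for HT-DNA in WT cells, 6 for *Cgas* KO against WT with tau and 0 of the 8 lower for WT tau against WT HT-DNA. Leaving out single libraries gave 6 to 8 members that were lower for WT tau against WT HT-DNA, 6 to 9 for the tau interaction, 0 to 1 for HT-DNA in *Cgas* KO cells and 0 to 8 in hippocampus. For HT-DNA in *Cgas* KO cells, 1 member (*Trim25*) passed with DESeq2, 1 with no filter and 1 with the compared groups alone. In hippocampus 7 passed with DESeq2, 1 with sex as a covariate and 0 with homeostatic markers as a covariate, and over all genes 229 were higher, against 697 with DESeq2, 129 with sex, 37 with homeostatic markers and 14 to 751 without 1 mouse. The causes were not tested.

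Signs turned for members that had not passed in *Cgas* KO cells with HT-DNA. *Trim26* was at -0.0051 with the compared groups alone, and without 1 library the log2 fold changes ran from -0.0402 to 0.0542 for *Trim26*, -0.0547 to 0.12 for *Trim30d*, -0.045 to 0.0407 for *Trim34a*, -0.0003 to 0.0573 for *Trim56*, -0.0052 to 0.0497 for *Pml* and -0.16 to 0.0154 for *Sp100*. On the linear scale of normalized CPM, an alternative chosen after seeing the data, the tau interaction turned to -8.37 for *Trim14*, -32.7 for *Trim30a*, -29.5 for *Trim30d*, -3.82 for *Trim34a* and -44.7 for *Sp100*, since a fold divides by the vehicle level and a difference does not. Over all members, comparisons and alternatives but the linear scale and the minimum fold, 2408 values kept direction and side of the threshold, 33 lost it, 24 gained it and 13 turned sign. *Trim14* had the fewest counts of the members in hippocampus, at 4 to 36 per library.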
